A study of Mus musculus with 5 samples.

Results

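The subject is a set of 10 genes of the STAT5 pathway in lymphocytes of treated mouse melanomas: Cish, Socs1, Socs2, Socs3, Pim1, Pim2, Osm, Lta, Stat5a and Stat5b. They were chosen by name, by the rule that their unique molecular identifiers (UMIs, each standing for 1 captured transcript) be summed in CD8 T, CD4 T, regulatory T (Treg) and natural killer (NK) cells of every library. All 10 symbols were found once among the 28692 genes of the files. The libraries are 5' single-cell RNA libraries of live cells bearing CD45, the surface protein of blood-derived cells. The cells were sorted from tumors of B16-F10, a transplantable mouse melanoma line, 11 days after 500000 tumor cells had been placed under the skin. There were 5 libraries with 1 for each treatment: fusion (an anti-PD1-IL15 protein fusion), combination (IL15 superagonist and anti-PD1), IL15 superagonist, anti-PD1 and PBS. For combination, the title gives IL15 superagonist and the treatment tag gives IL15. All mice carried B16-F10 tumors, and the labels place the treatments after the tumors were taken, which leaves their timing unclear. The sources used here do not give mouse strain, sex, age, dose or the number of mice behind a library.

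As background, interleukin 15 and interleukin 2 signal through shared receptor chains to the kinases JAK1 and JAK3, which phosphorylate STAT5A and STAT5B, and these then enter the nucleus and induce target genes. Among the targets are Cish, Socs1, Socs2 and Socs3, whose proteins (CIS and SOCS) bind cytokine receptors or JAK kinases and dampen the same signal. Pim1 and Pim2 encode serine/threonine kinases known for promoting survival and growth of lymphocytes. Osm encodes oncostatin M, a cytokine of the interleukin 6 family. Lta encodes lymphotoxin alpha, a cytokine of the tumor necrosis factor family. In CD8 T cells and NK cells, interleukin 15 is known for supporting survival and proliferation.

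STAT5 is known to bind the palindrome TTCNNNGAA, which reads the same on both strands, and the start regions of the members that hold it are shown because the results turn on these genes. RefSeq windows on GRCm38.p6, from 250 bases before to 50 after the annotated start, were at hand for 8 members and made up 11 windows. The motif was found 2 times each in Cish and Lta and once in Socs3, whereas no window of Socs1, Pim1, Pim2, Stat5a or Stat5b held it. Of all 32851 such windows, 2726 (8.30%) held the motif at least once and 150 (0.457%) at least 2 times. Cish lies at chr9:107296409-107296708 on the plus strand, with TTCCTGGAA beginning at the start base and TTCTTGGAA 11 bases after it. Lta lies at chr17:35205302-35205601 on the minus strand, with TTCAGGGAA 152 bases and TTCCCAGAA 16 bases before the start. Socs3 lies at chr11:117969317-117969616 on the minus strand, with TTCTTAGAA 154 bases before the start. Socs1, at chr16:10785487-10785786 on the minus strand, is shown for contrast. Sequences run 5' to 3' in lower case with each match in capitals, and a match is a description of letters, not a measured binding site.
Cish: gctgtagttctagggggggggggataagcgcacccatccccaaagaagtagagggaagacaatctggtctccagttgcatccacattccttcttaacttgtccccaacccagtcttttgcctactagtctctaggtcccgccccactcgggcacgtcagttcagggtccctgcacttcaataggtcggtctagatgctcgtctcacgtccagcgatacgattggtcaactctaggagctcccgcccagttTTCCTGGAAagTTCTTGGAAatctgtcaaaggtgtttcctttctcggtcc
Lta: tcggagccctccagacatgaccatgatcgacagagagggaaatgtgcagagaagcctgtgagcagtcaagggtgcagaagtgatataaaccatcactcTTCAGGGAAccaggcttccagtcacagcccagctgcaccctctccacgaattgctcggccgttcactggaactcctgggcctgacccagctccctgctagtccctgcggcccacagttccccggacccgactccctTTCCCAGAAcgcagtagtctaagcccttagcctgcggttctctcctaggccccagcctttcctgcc
Socs3: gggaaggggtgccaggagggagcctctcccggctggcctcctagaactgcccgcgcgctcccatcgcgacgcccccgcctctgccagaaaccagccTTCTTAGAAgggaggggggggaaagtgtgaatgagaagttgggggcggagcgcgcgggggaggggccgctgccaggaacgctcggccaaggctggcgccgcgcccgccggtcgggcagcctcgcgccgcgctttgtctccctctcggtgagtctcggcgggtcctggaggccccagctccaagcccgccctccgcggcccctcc
Socs1: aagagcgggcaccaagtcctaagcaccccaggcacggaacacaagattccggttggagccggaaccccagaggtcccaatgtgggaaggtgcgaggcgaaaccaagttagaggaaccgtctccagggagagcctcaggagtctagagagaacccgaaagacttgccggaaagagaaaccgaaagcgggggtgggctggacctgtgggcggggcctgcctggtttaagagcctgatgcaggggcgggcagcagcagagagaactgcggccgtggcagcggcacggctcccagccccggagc

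The 5 libraries held 6015 to 8747 barcodes and 32832856 to 81565425 UMIs, both lowest in PBS and highest in fusion, and 774 of 36688 distinct barcode sequences (2.11%) occurred in at least 2 libraries. Classes were gated on marker UMIs. CD8 T cells numbered 6360 in fusion, 3040 in combination, 1822 in IL15 superagonist, 1035 in anti-PD1 and 874 in PBS, with median depths of 9045.5, 5036, 4581, 6239 and 5511 UMIs per cell in that order. NK cells numbered 216, 898, 1128, 569 and 353. CD4 T cells numbered 32, 148, 95, 107 and 105, and Treg cells 15, 126, 48, 123 and 134. Only classes with at least 50 cells were compared, which left out CD4 T cells of fusion and Treg cells of fusion and IL15 superagonist. As a check of the class names, the 6 NK markers summed to 184 CPM in fusion, 204 in combination, 166 in IL15 superagonist, 139 in anti-PD1 and 183 in PBS CD8 T cells, with none at 0. Klre1 led this list in all 5, at 125 CPM in fusion and 89.8 CPM in PBS, while Klrb1c stood at 32.5 CPM in fusion and 1.55 CPM in PBS and the NK receptor gene Ncr1 at 1.75 CPM in fusion and 1.03 CPM in PBS. The 12 myeloid markers summed to 24.3 to 49.2 CPM in CD8 T cells of the libraries, after cells with at least 2 myeloid or B-cell genes and 3 such UMIs had been left out. The PBS library stood apart in its T-cell genes, since Cd3d, Cd3e and Cd3g summed to 2525 CPM in its CD8 T cells, against 3305 to 3757 CPM in those of the other libraries. After this was seen, each comparison with PBS was also made with anti-PD1 in its place.

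Levels are given in CPM, the UMIs of a gene per 1000000 UMIs of its class and library. Treatments have no replicate libraries, so no test between them was made. A gene is called higher or lower where its CPM differed at least 1.5-fold with at least 20 UMIs over both libraries. Ranges in parentheses are exact 95% intervals (Poisson for a level, conditional binomial for a fold), which cover counting error alone and not the spread between mice. Each ratio was also computed under up to 10 alternatives, among them thinning every cell to 1500 UMIs, a stricter gate, the mean over cells, UMIs per cell and keeping cells with markers of another lineage, and a call ended where the ratio came short of 1.5-fold. The thinned alternative gated the classes again on the thinned UMIs, so both depth and the set of cells changed in it.

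Cish, which encodes the feedback inhibitor CIS, was highest in fusion and lowest in PBS CD8 T cells. Its level was 174 CPM in fusion, 103 in combination, 113 in IL15 superagonist, 78.4 in anti-PD1 and 62.4 in PBS, from 11324, 2105, 1255, 622 and 362 UMIs. The fusion level (170.4 to 177 CPM) stood above every other library, combination and IL15 superagonist lay next to each other, and PBS was lowest (56.1 to 69.1 CPM). Fusion was 2.78-fold (2.51 to 3.10) higher than PBS, 1.69-fold (1.62 to 1.77) higher than combination and 1.53-fold (1.44 to 1.62) higher than IL15 superagonist. Combination was 1.65-fold (1.47 to 1.84) and IL15 superagonist 1.82-fold (1.62 to 2.05) higher than PBS, whereas anti-PD1 differed 1.26-fold (1.10 to 1.43) and was not called. The combination call against PBS ended after thinning (log2 0.30), with the mean over cells (0.57) and in cells without Mki67 or Top2a UMIs (0.55). The IL15 superagonist call against PBS ended after thinning (0.48), as did that of fusion over IL15 superagonist (0.582). With anti-PD1 in place of PBS, fusion was 2.22-fold (2.04 to 2.41) higher, whereas combination and IL15 superagonist were short of 1.5-fold and not called.

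Socs2, which encodes a regulator best known for restraining growth hormone signalling, was high in a single library. Its level in CD8 T cells was 40.7 CPM in fusion, 8.33 in combination, 10.5 in IL15 superagonist, 4.41 in anti-PD1 and 6.72 in PBS, from 2655, 171, 116, 35 and 39 UMIs. Fusion lay far above the other 4, whose levels spanned 4.41 to 10.5 CPM. The fusion level was 6.06-fold (4.42 to 8.54) higher than PBS, 4.88-fold (4.18 to 5.73) higher than combination, 3.88-fold (3.22 to 4.72) higher than IL15 superagonist and 9.23-fold (6.62 to 13.3) higher than anti-PD1. IL15 superagonist was 1.56-fold (1.08 to 2.30) higher than PBS, combination differed 1.24-fold (0.872 to 1.80) and was not called, and anti-PD1 was at 0.656-fold (0.404 to 1.06) of PBS, with an interval that spans 1. The IL15 superagonist call was kept in 5 of 10 alternatives, and the anti-PD1 ratio turned after thinning (log2 0.32).

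Socs1, whose protein inhibits JAK kinases directly, was higher in all 3 libraries that received an IL15 agent. Its level in CD8 T cells was 173 CPM in fusion, 172 in combination, 204 in IL15 superagonist, 112 in anti-PD1 and 88.0 in PBS. Fusion and combination were alike within counting error, at 1.01-fold (0.973 to 1.05) of each other. Against PBS, fusion was 1.97-fold (1.80 to 2.16), combination 1.95-fold (1.78 to 2.14) and IL15 superagonist 2.32-fold (2.11 to 2.56) higher, and anti-PD1 differed 1.27-fold (1.14 to 1.42). Socs3, known for blocking receptors of the interleukin 6 family, followed another order. Its level was 49.1 CPM in fusion, 77.6 in combination, 107 in IL15 superagonist, 49.4 in anti-PD1 and 54.6 in PBS. IL15 superagonist was highest, combination came next, and fusion, anti-PD1 and PBS lay within 49.1 to 54.6 CPM. IL15 superagonist was 1.95-fold (1.72 to 2.22) higher than PBS, and combination differed 1.42-fold (1.26 to 1.61). Fusion was lower than combination, at 0.633-fold (0.596 to 0.673), and lower than IL15 superagonist, at 0.461-fold (0.431 to 0.493).

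The kinases Pim1 and Pim2 shared the order of Socs3 at its upper end. In CD8 T cells Pim1 stood at 119 CPM in fusion, 201 in combination, 241 in IL15 superagonist, 166 in anti-PD1 and 106 in PBS. Pim2 stood at 22.7 CPM in fusion, 36.7 in combination, 48.7 in IL15 superagonist, 26.7 in anti-PD1 and 21.4 in PBS. Both were highest in IL15 superagonist and second in combination, whereas fusion lay near PBS. Pim1 was 2.27-fold (2.08 to 2.48) higher in IL15 superagonist, 1.89-fold (1.73 to 2.06) higher in combination and 1.57-fold (1.42 to 1.73) higher in anti-PD1 than in PBS, and differed 1.12-fold (1.03 to 1.21) between fusion and PBS. Pim2 was 2.28-fold (1.87 to 2.79) higher in IL15 superagonist and 1.72-fold (1.42 to 2.09) higher in combination than in PBS. The combination call for Pim2 ended with the mean over cells (log2 0.50) and in cells without Mki67 or Top2a UMIs (0.57), and the anti-PD1 call for Pim1 was kept in 7 of 10 alternatives. Fusion was lower than combination for both kinases, at 0.591-fold (0.569 to 0.614) for Pim1 and 0.620-fold (0.567 to 0.677) for Pim2. With anti-PD1 in place of PBS, Pim1 was called neither in combination nor in IL15 superagonist. Pim2 was then called in IL15 superagonist, at 1.82-fold, and not in combination.

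Of the cytokine genes, Lta had the largest ratio to PBS of any member in fusion CD8 T cells. Its level was 22.8 CPM in fusion, 6.87 in combination, 13.3 in IL15 superagonist, 8.19 in anti-PD1 and 3.10 in PBS, from 1486, 141, 147, 65 and 18 UMIs. All 4 treated libraries lay above PBS, and fusion was highest. Fusion was 7.35-fold (4.63 to 12.4), combination 2.22-fold (1.35 to 3.85), IL15 superagonist 4.28-fold (2.62 to 7.43) and anti-PD1 2.64-fold (1.55 to 4.73) higher than PBS. These ratios rest on 18 PBS UMIs, and against anti-PD1 fusion was 2.78-fold (2.17 to 3.62) higher, while combination was at 0.839-fold (0.621 to 1.14). The combination call against PBS ended after thinning (log2 0.19) and with the mean over cells (0.37). Combination was lower than IL15 superagonist, at 0.517-fold (0.408 to 0.656). Osm was low in CD8 T cells, at 3.05 CPM in fusion, 2.63 in combination, 4.16 in IL15 superagonist, 4.41 in anti-PD1 and 3.96 in PBS, from 199, 54, 46, 35 and 23 UMIs. Combination was lowest, at 0.664-fold (0.401 to 1.13) of PBS, 0.633-fold (0.419 to 0.960) of IL15 superagonist and 0.597-fold (0.383 to 0.941) of anti-PD1, and the interval against PBS spans 1. In cells without Mki67 or Top2a UMIs the log2 ratio of combination to PBS was 0.11, and with other-lineage cells kept that of combination to IL15 superagonist was 0.32, both turned in direction.

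The transcription factors themselves ran opposite to Cish in fusion. In CD8 T cells Stat5a stood at 19.7 CPM in fusion, 35.4 in combination, 35.9 in IL15 superagonist, 38.3 in anti-PD1 and 40.1 in PBS. Stat5b stood at 23.1 CPM in fusion, 43.9 in combination, 42.3 in IL15 superagonist, 48.9 in anti-PD1 and 55.1 in PBS. For both, fusion was lowest and PBS highest, and the other 3 libraries lay close to PBS. Fusion was lower than PBS, at 0.490-fold (0.426 to 0.565) for Stat5a and 0.418-fold (0.370 to 0.473) for Stat5b, and lower than combination, at 0.555-fold (0.507 to 0.609) and 0.525-fold (0.483 to 0.571) for the same genes. The Stat5a call of fusion against PBS ended after thinning (log2 -0.31) and per cell (-0.40). Combination, IL15 superagonist and anti-PD1 differed from PBS by less than 1.5-fold for both. The products are close paralogs whose genes lie next to each other (Stat5a at chr11:100859351-100885169 and Stat5b at chr11:100780731-100850724, mm10), and the sources used here do not say how reads shared by them were counted. Stat5a also overlaps Stat3, and Cish overlaps an antisense gene, Gm17041, and Pim1 another, Gm26885. Whether counting used strand is not given, so the share of such reads in these values is unknown.

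Counted over the 10 members in CD8 T cells, fusion against PBS had 4 higher and 2 lower, beside 17.7% higher and 28.4% lower of all genes with 20 UMIs. The higher ones were Cish, Socs1, Socs2 and Lta, and the lower ones Stat5a and Stat5b. Combination against PBS had 5 higher and 1 lower, beside 12.7% higher and 18.7% lower of all genes with 20 UMIs. IL15 superagonist against PBS had 7 higher and 0 lower, beside 15.1% higher and 19.3% lower of all genes with 20 UMIs, the 7 being Cish, Socs1, Socs2, Socs3, Pim1, Pim2 and Lta. Anti-PD1 against PBS had 2 higher and 1 lower, beside 8.38% higher and 11.6% lower of all genes with 20 UMIs. The median log2 ratio of the members to PBS was 0.12 in fusion, 0.61 in combination, 0.91 in IL15 superagonist and 0.24 in anti-PD1, beside medians of -0.12, -0.07, -0.05 and -0.06 over all genes in that order. These 4 comparisons share the PBS library. IL15 superagonist thus had the most members higher, whereas fusion had the largest single ratios.

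Set directly against combination, the mixture of separate agents, fusion had 3 higher and 5 lower, beside 13.6% higher and 17.7% lower of all genes with 20 UMIs. Cish, Socs2 and Lta were higher, and Socs3, Pim1, Pim2, Stat5a and Stat5b were lower. Against IL15 superagonist, fusion had 3 higher and 5 lower, beside 13.9% higher and 20.3% lower of all genes with 20 UMIs. Cish, Socs2 and Lta were higher here too, and Socs3, Pim1, Pim2, Stat5a and Stat5b lower, in a comparison that shares the fusion library with the one before. Against anti-PD1, fusion had 4 higher and 2 lower, beside 11.8% higher and 19.3% lower of all genes with 20 UMIs. Combination against IL15 superagonist had 0 higher and 2 lower, beside 2.76% higher and 5.46% lower of all genes with 20 UMIs, the 2 being Lta and Osm. IL15 superagonist against anti-PD1 had 5 higher and 0 lower, beside 10.8% higher and 10.3% lower of all genes with 20 UMIs, and combination against anti-PD1 had 3 higher and 1 lower, beside 6.82% higher and 9.05% lower of all genes with 20 UMIs. Combination and IL15 superagonist were the pair of libraries with the fewest members called in CD8 T cells. They were also the pair with the smallest shares of all genes called, so the low count is not particular to the members.

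**Figure D1:**
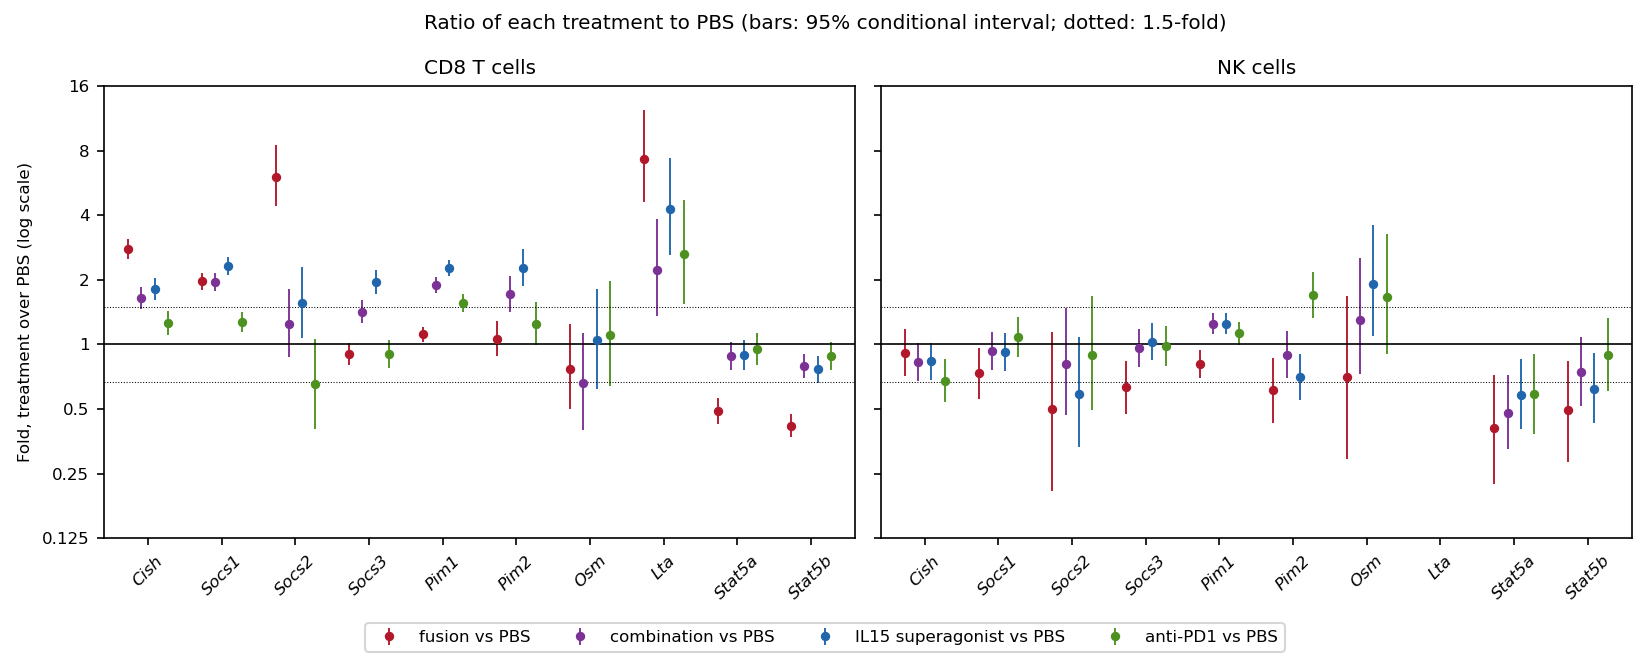
Ratio of each treatment library to PBS (log axis) for the members in CD8 T cells (left) and NK cells (right), with exact 95% conditional intervals as bars and dotted lines at 1.5-fold in both directions. In CD8 T cells the fusion points for Socs2 and Lta lie at 6.06 and 7.35, whereas in NK cells every fusion point lies below 1; Lta had under 20 UMIs in these NK pairs and is not drawn.

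Depth per cell differed, with medians of 9045.5 UMIs in fusion and 5511 UMIs in PBS CD8 T cells, and part of the values depend on the scale. Per cell, Cish averaged 1.78 UMIs in fusion, 0.692 in combination, 0.689 in IL15 superagonist, 0.601 in anti-PD1 and 0.414 in PBS, and Pim1 averaged 1.22 UMIs in fusion, 1.35 in combination, 1.47 in IL15 superagonist, 1.28 in anti-PD1 and 0.706 in PBS. On this scale the median of all genes moved to a log2 ratio of 0.51 for fusion against PBS and 0.54 for fusion against combination, so that a fold is read against that shift. Per cell, fusion over PBS was 4.30 for Cish, 9.36 for Socs2, 11.3 for Lta and 3.04 for Socs1. It was 1.72 for Pim1, 0.756 for Stat5a and 0.646 for Stat5b. Fusion over combination was 0.962 for Socs3, 0.898 for Pim1, 0.941 for Pim2, 0.844 for Stat5a and 0.798 for Stat5b. The 5 members lower in fusion than in combination by CPM were thus within 1.5-fold of 1 per cell. All 5 stayed below 1 and further below the all-gene median of log2 0.54. Socs1 at 1.54 and Osm at 1.76 were past 1.5-fold per cell only, and are not read as higher, since the shift of all genes is part of these ratios. Cish, Socs2 and Lta were higher on both scales.

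**Figure D2:**
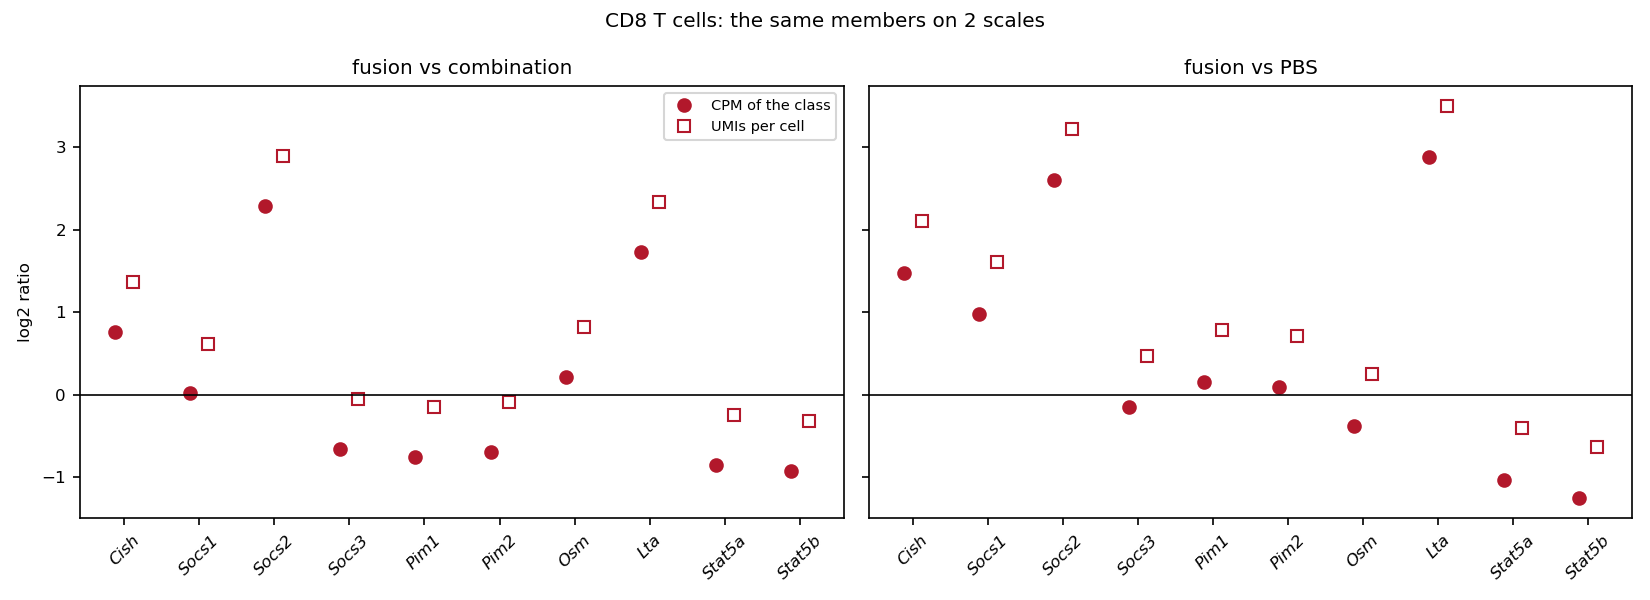
Ratio of fusion to PBS and of fusion to combination in CD8 T cells for each member, once by CPM and once by UMIs per cell (log axes). Cish, Socs2 and Lta lie above 1.5-fold on both scales, whereas Socs3, Pim1 and Pim2 in fusion against combination lie near 0.6 by CPM and between 0.898 and 0.962 per cell.

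Counted as shares of cells, Cish was detected in 70.2%, 36.6%, 35.1%, 34.3% and 29.3% of CD8 T cells in fusion, combination, IL15 superagonist, anti-PD1 and PBS. After every cell was thinned to 1500 UMIs, these shares were 22.8% in fusion, 13.0% in combination, 13.8% in IL15 superagonist, 11.8% in anti-PD1 and 10.2% in PBS. Myeloid cells, thinned likewise, had shares of 7.25% in fusion, 8.69% in combination, 8.62% in IL15 superagonist, 7.78% in anti-PD1 and 6.34% in PBS. The thinned shares of CD8 T cells with Socs2 were 5.88% in fusion, 1.28% in combination, 1.43% in IL15 superagonist, 0.966% in anti-PD1 and 0.801% in PBS. Those of myeloid cells with Socs2 were 1.45% in fusion, 0.782% in combination, 0.591% in IL15 superagonist, 0.549% in anti-PD1 and 0.511% in PBS. Fusion was the library with the most positive cells for both genes at equal depth.

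The thinned shares of CD8 T cells with Lta were 2.70% in fusion, 0.789% in combination, 1.43% in IL15 superagonist, 0.966% in anti-PD1 and 0.343% in PBS, beside at most 0.236% of myeloid cells, which serve as the background of free RNA for this lymphocyte gene. The 1% of CD8 T cells with the most Lta held 36.7% of its UMIs in fusion, 51.8% in combination, 59.2% in IL15 superagonist and 41.5% in anti-PD1, with PBS between anti-PD1 and combination. A single fusion cell had 48 Lta UMIs. For Socs2 the top 1% held 12.6% of its UMIs in fusion and 42.2% to 48.7% in the other libraries. With few UMIs this share is high even where each UMI lies in its own cell. Libraries with unlike numbers of UMIs can therefore not be compared by it. In fusion, where both genes had more UMIs than in any other library, the share was larger for Lta than for Socs2. Socs2 and Lta of fusion were seen together in few cells. Thinned Lta was seen in 0.802% (0.166 to 2.33) of 374 Socs2-positive and in 2.82% (2.42 to 3.27) of 5986 Socs2-negative fusion CD8 T cells. These Clopper-Pearson intervals take cells of 1 library as independent, and cells are not replicates of a treatment. All pairs of members were computed and this one alone is given, so whether the shares differ was not tested.

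The thinned shares of CD8 T cells with Pim1 were 14.4% in fusion, 24.9% in combination, 27.4% in IL15 superagonist, 21.2% in anti-PD1 and 15.8% in PBS, and those with Socs1 were 22.2% in fusion, 23.2% in combination, 25.4% in IL15 superagonist, 16.5% in anti-PD1 and 12.5% in PBS. Fusion had the smallest share for Pim1, and the 3 libraries with an IL15 agent had the largest for Socs1. Those with Stat5b were 3.51% in fusion, 6.74% in combination, 6.81% in IL15 superagonist, 7.83% in anti-PD1 and 9.95% in PBS, with PBS at the top and fusion at the bottom. Fusion lay above PBS for Cish, Socs1, Socs2 and Lta in these shares as in CPM.

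CD8 T cells were divided within each library by whether they had a UMI of Pdcd1, which encodes PD-1, the target of the antibody. Pdcd1-positive cells made up 96.3% of CD8 T cells in fusion, 65.9% in combination, 56.1% in IL15 superagonist, 80.0% in anti-PD1 and 77.7% in PBS. These shares use UMIs as deposited and rise with depth, which was greatest in fusion (median 9045.5 UMIs), so they are not shares at equal depth. The ratio of positive to negative cells for Pim2 was 0.328 in fusion, 0.417 in combination, 0.355 in IL15 superagonist, 0.414 in anti-PD1 and 0.258 in PBS. The Socs3 ratio was 0.434 in fusion, 0.532 in combination, 0.451 in IL15 superagonist, 0.373 in anti-PD1 and 0.652 in PBS. Both genes were thus past 1.5-fold lower in Pdcd1-positive cells of every library. Of all genes with 20 UMIs, 23%, 12.2%, 11.7%, 11.9% and 8.57% were lower in positive cells of the libraries in that order. With every cell thinned to 1500 UMIs before the split, the Pim2 ratio was 0.971 in fusion, 0.722 in combination, 0.376 in IL15 superagonist, 0.891 in anti-PD1 and 0.821 in PBS. The thinned Socs3 ratio was 1.01 in fusion, 0.750 in combination, 0.690 in IL15 superagonist, 0.671 in anti-PD1 and 0.631 in PBS. At this equal depth 2 of the 10 ratios were past 1.5-fold, Pim2 in IL15 superagonist and Socs3 in PBS. Of all genes with 20 UMIs after thinning, 9.22% and 9.4% were lower in positive cells of these libraries.

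For Cish, the ratio of Pdcd1-positive to Pdcd1-negative CD8 T cells was 1.18 in fusion, 1.32 in combination, 1.93 in IL15 superagonist, 0.884 in anti-PD1 and 0.814 in PBS, and only IL15 superagonist was past 1.5-fold. After thinning that ratio was 1.15 in fusion, 1.09 in combination, 1.81 in IL15 superagonist, 1.24 in anti-PD1 and 1.01 in PBS. For Socs2 it was 2.08 in fusion, 1.83 in combination, 1.78 in IL15 superagonist, 0.829 in anti-PD1 and 0.428 in PBS, and after thinning 1.24 in fusion, 2.84 in combination, 2.84 in IL15 superagonist, 1.03 in anti-PD1 and 0.404 in PBS. In the combination and IL15 superagonist libraries, Socs2 was higher in Pdcd1-positive cells on both counts. Of all genes, 19.7% and 23.5% were higher there with UMIs as deposited, and 8.73% and 12.9% after thinning. The comparison of fusion with PBS within Pdcd1-positive cells, 6127 against 679 cells, gave 2.88-fold (2.57 to 3.24) for Cish, 7.29-fold (5.03 to 11.0) for Socs2 and 7.57-fold (4.57 to 13.6) for Lta. Within Pdcd1-negative cells, 233 against 195, Cish was 1.99-fold (1.48 to 2.70) higher in fusion, and Socs2 was at 1.505-fold (0.710 to 3.40) with an interval spanning 1. Whether these ratios differ between positive and negative cells was not tested.

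**Figure D3:**
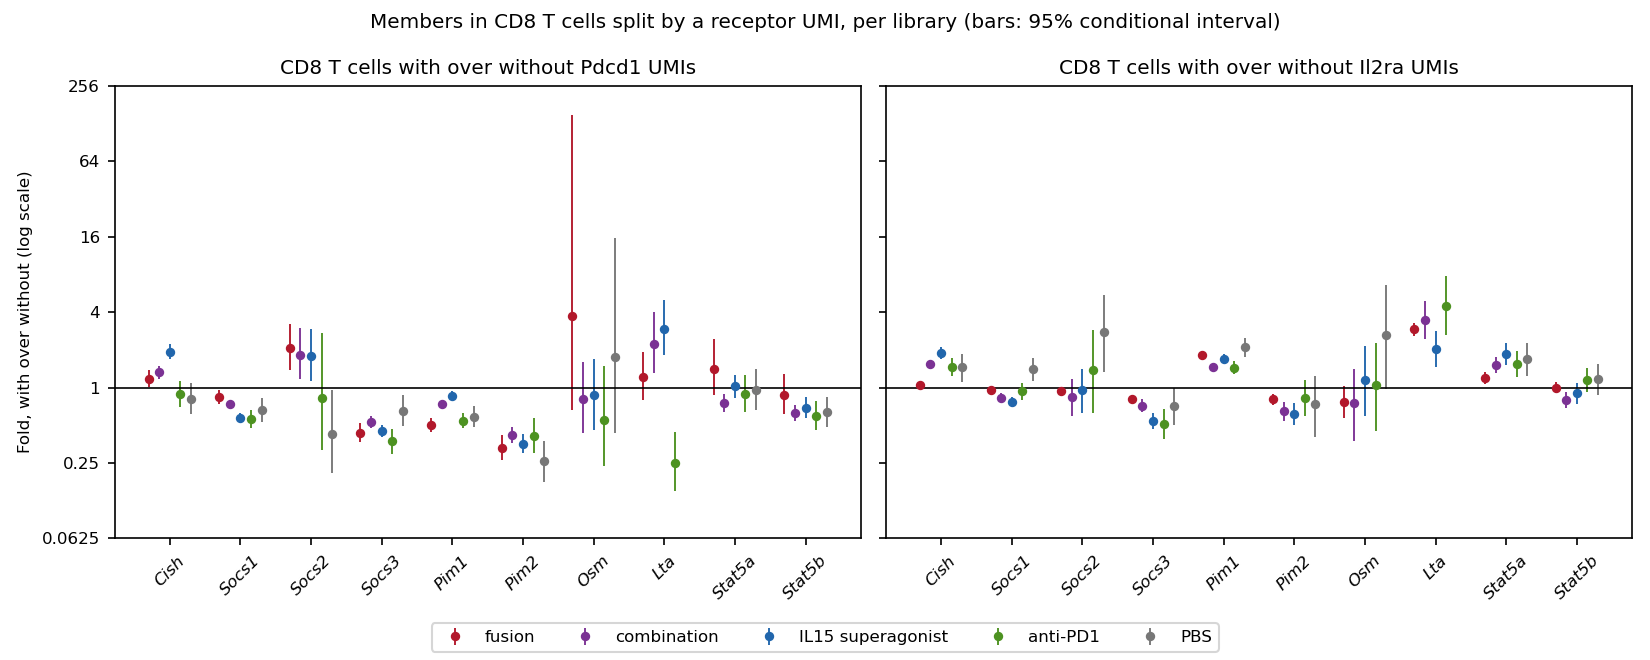
Ratio of CD8 T cells with a UMI of Pdcd1 (left) or Il2ra (right) to those without, for each member and library (log axis), with exact 95% conditional intervals as bars; points with fewer than 20 UMIs are left out. Pim2 and Socs3 lie below 1 for Pdcd1 in all 5 libraries, and Pim1 lies above 1 for Il2ra in all 5.

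Il2ra encodes the high-affinity chain of the interleukin 2 receptor and is itself a STAT5 target. Its UMIs as deposited, not at equal depth, marked 38.3% of CD8 T cells in fusion, 21.5% in combination, 23.3% in IL15 superagonist, 18.6% in anti-PD1 and 10.4% in PBS. The Pim1 level of Il2ra-positive over that of Il2ra-negative cells was 1.82 in fusion, 1.47 in combination, 1.70 in IL15 superagonist, 1.44 in anti-PD1 and 2.101 in PBS. Fusion, IL15 superagonist and PBS were past 1.5-fold, beside 3.64%, 12.7% and 12.6% of all genes higher there, and combination and anti-PD1 were short of it. After thinning, the Pim1 ratio was 2.04 in fusion, 1.58 in combination, 1.99 in IL15 superagonist and 1.97 in anti-PD1, all past 1.5-fold. Of all genes with 20 UMIs after thinning, 7.49%, 14.4%, 18.7% and 28.3% were higher there in that order. PBS had fewer than 50 positive cells after thinning. The Lta ratio was 2.91 in fusion, 3.46 in combination, 2.03 in IL15 superagonist and 4.49 in anti-PD1, while PBS had under 20 Lta UMIs. The Stat5a ratio was 1.19 in fusion, 1.52 in combination, 1.84 in IL15 superagonist, 1.55 in anti-PD1 and 1.68 in PBS. Cish was 1.06 in fusion, 1.53 in combination, 1.89 in IL15 superagonist, 1.46 in anti-PD1 and 1.45 in PBS, with fusion closest to 1. The Socs3 ratio was below 1 in all 5 libraries, at 0.811 in fusion, 0.719 in combination, 0.542 in IL15 superagonist, 0.513 in anti-PD1 and 0.714 in PBS. It was past 1.5-fold lower in IL15 superagonist and anti-PD1, beside 10.8% and 14.2% of all genes lower there. The Lta, Stat5a, Cish and Socs3 ratios use UMIs as deposited, and those at equal depth are not given here.

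Cells with a UMI of Mki67 or Top2a, genes of dividing cells, made up 62.4% of CD8 T cells in fusion, 22.5% in combination, 18.9% in IL15 superagonist, 39.5% in anti-PD1 and 41.4% in PBS. These shares too are not at equal depth, and fusion cells were the deepest. The ratio of cells with a Mki67 or Top2a UMI to the others for Pim2 was 0.667 in fusion, 0.429 in combination, 0.465 in IL15 superagonist, 0.647 in anti-PD1 and 0.437 in PBS, below 1 in all 5, beside 8.84%, 12.2%, 13.7%, 11.4% and 10% of all genes lower past 1.5-fold. Cish differed less, at 0.979 in fusion, 0.853 in combination, 1.03 in IL15 superagonist, 0.807 in anti-PD1 and 0.717 in PBS. Among cells without those UMIs, fusion over PBS was 2.37-fold (2.04 to 2.76) for Cish, 5.62-fold (3.61 to 9.25) for Socs2, 6.33-fold (3.04 to 15.9) for Lta and 0.310-fold (0.258 to 0.374) for Stat5b. Among cells with them it was 3.23-fold (2.79 to 3.77) for Cish, 6.84-fold (4.37 to 11.4) for Socs2, 7.43-fold (4.14 to 14.9) for Lta and 0.536-fold (0.451 to 0.642) for Stat5b. The direction of these 4 members was the same in dividing and other cells. All ratios of the Mki67 or Top2a split use UMIs as deposited, and those at equal depth are not given here.

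NK cells carry the same receptor chains for interleukin 15, and 0 to 2 members were higher in each comparison with PBS. With 9 members compared, these counts of higher members are not read as apart from the shares of all genes beside them. Fusion against PBS had 0 higher and 5 lower, beside 24% higher and 27.1% lower of all genes with 20 UMIs. Combination against PBS had 0 higher and 1 lower, beside 19.7% higher and 17.3% lower of all genes with 20 UMIs. IL15 superagonist against PBS had 1 higher and 3 lower, beside 20.9% higher and 18.8% lower of all genes with 20 UMIs, and anti-PD1 against PBS had 2 higher and 1 lower, beside 14.3% higher and 13.7% lower of all genes with 20 UMIs. The median log2 ratio of members with 20 UMIs, 9 in each of these pairs, was -0.66, -0.16, -0.26 and -0.03 in that order, beside all-gene medians of -0.01, 0.03, 0.03 and -0.00355.

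Cish in NK cells stood at 115 CPM in fusion, 104 in combination, 105 in IL15 superagonist, 85.3 in anti-PD1 and 126 in PBS. The libraries lay within 1.5-fold of each other, with PBS at the top, and fusion over PBS was 0.917-fold (0.715 to 1.18). Socs1 stood at 87.6 CPM in fusion, 111 in combination, 109.5 in IL15 superagonist, 129 in anti-PD1 and 119 in PBS, and Socs3 at 77.1 CPM in fusion, 117 in combination, 125 in IL15 superagonist, 119.6 in anti-PD1 and 122 in PBS. For Socs3, fusion was lowest, at 0.633-fold (0.477 to 0.836) of PBS, and the other 4 were close. Pim1 stood at 279 CPM in fusion, 432 in combination, 431 in IL15 superagonist, 388 in anti-PD1 and 345 in PBS. Fusion was again lowest, at 0.647-fold (0.572 to 0.729) of combination, a call kept in 3 of 10 alternatives. It ended with the stricter gate (log2 -0.48), after thinning (-0.0356), with both other CPM scalings, with the mean over cells, in cells without Mki67 or Top2a UMIs and per cell. Per cell, the ratio of fusion to PBS for Socs3 in NK cells was 1.15 and that for Pim2 was 1.11. Median depth was 3880 UMIs per cell in fusion and 2434 in PBS NK cells, and per-cell ratios also hold this difference in depth. A per-cell ratio above 1 is therefore not read as a higher level in fusion.

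Pim2 in NK cells was highest in anti-PD1, at 51.1 CPM in fusion, 74.7 in combination, 58.7 in IL15 superagonist, 142 in anti-PD1 and 83.5 in PBS. Anti-PD1 was 1.70-fold (1.34 to 2.18) higher than PBS. IL15 superagonist was at 0.414-fold (0.349 to 0.489), combination at 0.526-fold (0.446 to 0.621) and fusion at 0.360-fold (0.268 to 0.477) of anti-PD1. Stat5a in NK cells was highest in PBS, at 16.5 CPM in fusion, 19.4 in combination, 23.5 in IL15 superagonist, 23.7 in anti-PD1 and 40.3 in PBS. It was lower in all 4 treated libraries, at 0.408-fold (0.224 to 0.718), 0.481-fold (0.325 to 0.721), 0.582-fold (0.403 to 0.854) and 0.588-fold (0.384 to 0.906) of PBS. Socs2 stood at 8.67 CPM in fusion, 14.1 in combination, 10.2 in IL15 superagonist, 15.5 in anti-PD1 and 17.3 in PBS, from 10, 53, 45, 34 and 18 UMIs, and Stat5b at 19.9 CPM in fusion, 30.1 in combination, 25.1 in IL15 superagonist, 36.1 in anti-PD1 and 40.3 in PBS. Fusion was lower than PBS for both, at 0.502-fold (0.207 to 1.15) with an interval that spans 1 and at 0.494-fold (0.284 to 0.841). Osm was 1.91-fold (1.10 to 3.61) higher in IL15 superagonist than in PBS, from 114 and 14 UMIs. The direction of this ratio turned with other-lineage cells kept (log2 -0.84), and the call ended with the stricter gate (0.56) and after thinning (0.0649). The Socs2 ratio of fusion to PBS turned with the stricter gate (log2 0.22). The 12 myeloid markers summed to 53.7 CPM in NK cells of fusion and 88.1 to 112.9 CPM in those of the other libraries, and their part in the Osm values was not tested. Lta had 3, 15, 6, 9 and 2 UMIs in NK cells and was compared for combination with IL15 superagonist and with anti-PD1.

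CD4 T cells, gated on Cd4 without Foxp3, carried Cish, Socs2, Socs3, Pim1, Stat5a and Stat5b at levels more than 1.5-fold above those of CD8 T cells in all 4 libraries compared, from small numbers of cells. Of all genes with 20 UMIs, 24% in combination, 27.5% in IL15 superagonist, 26.2% in anti-PD1 and 23.2% in PBS were lower in CD8 T than in CD4 T cells. Cish stood at 273 CPM in combination, 202 in IL15 superagonist, 233 in anti-PD1 and 197 in PBS, and Socs1 at 200.2 CPM in combination, 183 in IL15 superagonist, 205 in anti-PD1 and 128 in PBS. Combination was 1.57-fold (1.12 to 2.24) and anti-PD1 1.61-fold (1.11 to 2.35) higher than PBS for Socs1, while Cish differed by less than 1.5-fold in all 3 pairs. Socs3 stood at 168 CPM in combination, 339 in IL15 superagonist, 187 in anti-PD1 and 136 in PBS. IL15 superagonist was highest, at 2.50-fold (1.78 to 3.55) over PBS, from 111 and 51 UMIs. Lta stood at 50.1 CPM in combination, 6.11 in IL15 superagonist, 17.7 in anti-PD1 and 13.3 in PBS, from 31, 2, 7 and 5 UMIs, and combination was 3.77-fold (1.45 to 12.4) higher than PBS. In cells without Mki67 or Top2a UMIs the direction of this ratio turned (log2 -0.0914). Socs2 was lower in IL15 superagonist, at 0.398-fold (0.164 to 0.876) of PBS, from 9 and 26 UMIs. Pim1 was lower in anti-PD1, at 0.624-fold (0.504 to 0.771) of PBS, a call that ended with other-lineage cells kept (log2 -0.38) and after thinning (-0.17). Pim2 in IL15 superagonist was at 0.511-fold (0.192 to 1.23), Stat5a in combination at 0.658-fold (0.408 to 1.07) and Stat5b in combination at 0.584-fold (0.388 to 0.878) of PBS, and the Pim2 ratio turned after thinning (log2 0.0444). Combination against PBS had 2 higher and 2 lower, beside 17.8% higher and 17.3% lower of all genes with 20 UMIs. IL15 superagonist against PBS had 1 higher and 2 lower, beside 18.3% higher and 19.3% lower of all genes with 20 UMIs, and anti-PD1 against PBS had 1 higher and 1 lower, beside 15.8% higher and 16.1% lower of all genes with 20 UMIs. Combination against anti-PD1 had 1 higher and 1 lower, beside 12.3% higher and 11.5% lower of all genes with 20 UMIs, combination against IL15 superagonist had 3 higher and 1 lower, beside 12.6% higher and 10.5% lower of all genes with 20 UMIs, and IL15 superagonist against anti-PD1 had 2 higher and 1 lower, beside 12.5% higher and 13.9% lower of all genes with 20 UMIs. The 4 markers of type 2 innate lymphoid cells summed to 953 to 2315 CPM in this class. The 4 Treg markers summed to 844 to 1834 CPM in the 4 libraries compared, although the gate sets Foxp3 to 0. The part of cells of either kind in these values was not tested. In the 32 CD4 T cells of fusion, too few to compare, Socs2 had 36 UMIs or 237 CPM.

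In Treg cells, which depend on interleukin 2, Socs1 stood at 295 CPM in combination, 191 in anti-PD1 and 142 in PBS, and Socs3 at 82.2 CPM in combination, 50.8 in anti-PD1 and 39.0 in PBS. Combination was highest for both, by 2.08-fold (1.63 to 2.66) and 2.11-fold (1.32 to 3.44) over PBS. The Socs3 call ended after thinning (log2 0.31). Socs2 ran the other way, at 75.2 CPM in combination, 82.7 in anti-PD1 and 128 in PBS, and was lower than PBS in combination, at 0.586-fold (0.410 to 0.831), and in anti-PD1, at 0.645-fold (0.455 to 0.907). Stat5b in combination was at 0.567-fold (0.361 to 0.877) of PBS, a call that ended after thinning (log2 -0.577). Lta had 19 UMIs in combination, 7 in anti-PD1 and 2 in PBS, a ratio of combination to PBS of 9.67 (2.33 to 85.6). Combination against PBS had 3 higher and 2 lower, beside 15.7% higher and 14.7% lower of all genes with 20 UMIs. Anti-PD1 against PBS had 1 higher and 1 lower, beside 11.2% higher and 15.8% lower of all genes with 20 UMIs, the higher one being Osm at 1.56-fold (0.587 to 4.403), from 12 and 8 UMIs. Combination against anti-PD1 had 3 higher and 1 lower, beside 13.9% higher and 8.94% lower of all genes with 20 UMIs, with Socs1, Socs3 and Lta higher and Stat5b lower. Of 10 alternatives, the Socs1 and Socs3 calls were kept in 7 each and the Stat5b call in 8, and the Lta call was kept in 9 of 9. Cish in Treg cells was 219.8 CPM in combination, 149 in anti-PD1 and 188 in PBS, within 1.5-fold.

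**Figure D4:**
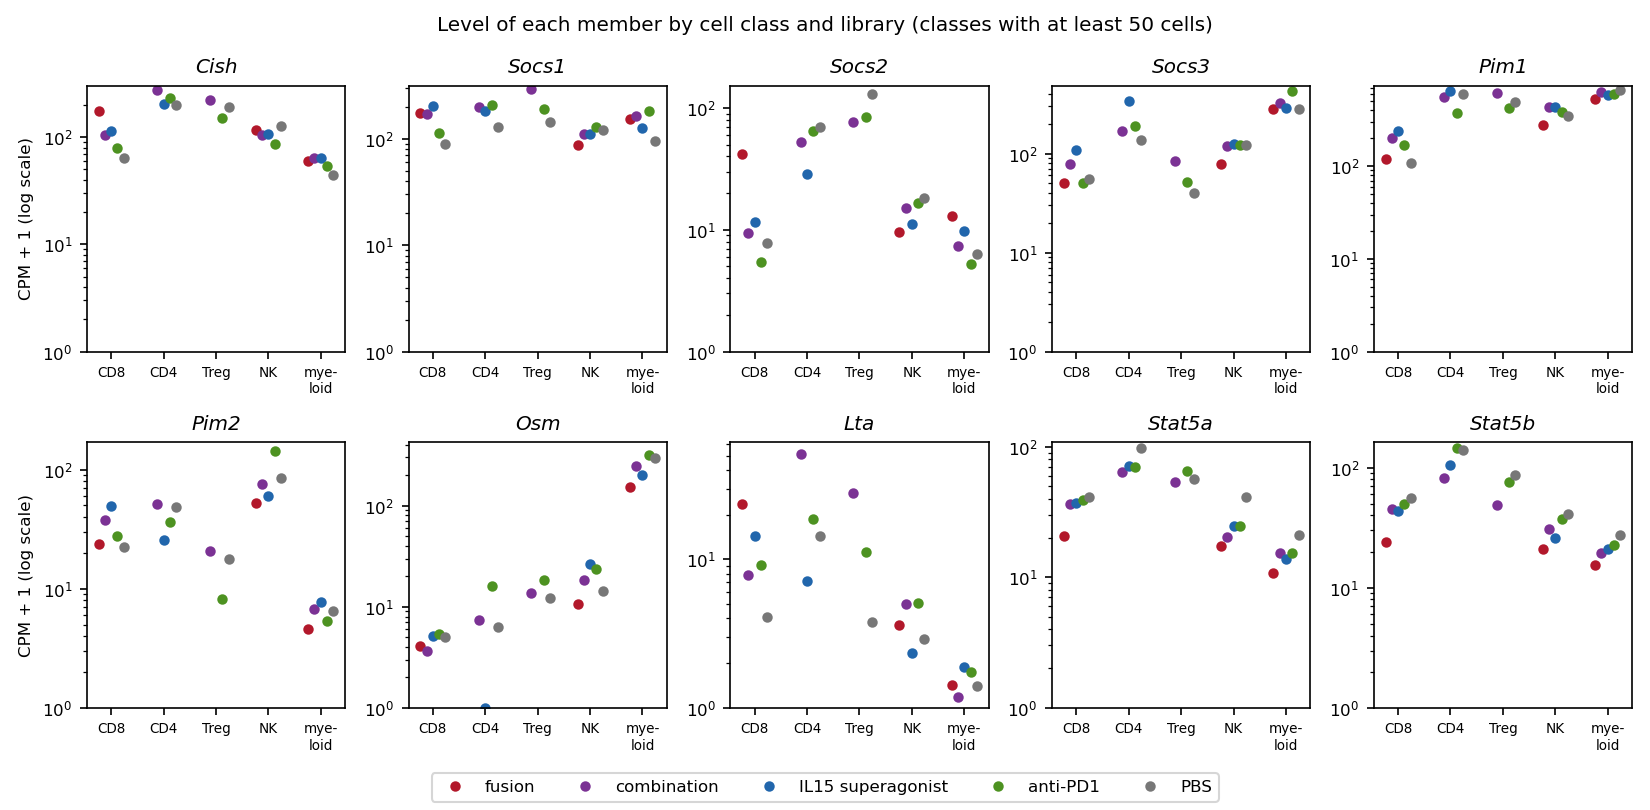
Level of each member (CPM + 1, log axis) in CD8 T, CD4 T, Treg and NK cells of each library with at least 50 cells of the class, 1 point per library. Socs2 and Cish of PBS lie lower in CD8 T than in CD4 T, Treg and NK cells, and the Socs2 point of fusion CD8 T cells lies above those of the other 4 CD8 T libraries.

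The order of the cell classes for a gene depended on the treatment. CD8 T cells over NK cells of the same library gave ratios for Cish of 1.51 in fusion, 0.989 in combination, 1.08 in IL15 superagonist, 0.918 in anti-PD1 and 0.496 in PBS. For Socs2 the ratios were 4.70 in fusion, 0.591 in combination, 1.03 in IL15 superagonist, 0.284 in anti-PD1 and 0.389 in PBS, and for Socs1 1.98 in fusion, 1.55 in combination, 1.87 in IL15 superagonist, 0.871 in anti-PD1 and 0.739 in PBS. CD8 T cells of fusion were thus above NK cells for these 3 feedback genes, whereas those of PBS were below. Of all genes, 17.9% were higher in CD8 T than in NK cells of fusion. Socs3, the remaining feedback gene, was below 1 in all 5 libraries. Its ratios were 0.637 (0.516 to 0.795) in fusion, 0.663 in combination, 0.852 in IL15 superagonist, 0.413 in anti-PD1 and 0.448 in PBS. Pim1 was lower in CD8 T than in NK cells of all 5 libraries, at 0.425 in fusion, 0.465 in combination, 0.559 in IL15 superagonist, 0.429 in anti-PD1 and 0.308 in PBS, and Pim2 was below 1 throughout, at 0.445 in fusion, 0.491 in combination, 0.830 in IL15 superagonist, 0.188 in anti-PD1 and 0.256 in PBS. Of all genes, 25.2%, 14.5%, 13.4%, 15.4% and 16.6% were lower in CD8 T than in NK cells of the libraries in that order. Set against CD4 T cells, CD8 T cells had Socs2 ratios of 0.161 in combination, 0.381 in IL15 superagonist, 0.0697 in anti-PD1 and 0.0972 in PBS. Set against Treg cells, they had Socs2 ratios of 0.111 in combination, 0.0534 in anti-PD1 and 0.0524 in PBS and Cish ratios of 0.467 in combination, 0.525 in anti-PD1 and 0.332 in PBS. Both genes were therefore lower in CD8 T than in Treg cells of these 3 libraries, beside 26.1%, 20.9% and 19% of all genes. Osm was higher in myeloid cells than in the lymphocyte classes, at 152 CPM in fusion, 249 in combination, 201 in IL15 superagonist, 317 in anti-PD1 and 292 in PBS of myeloid cells. Summed levels of the 12 myeloid markers in CD8 T cells are given above, and the part of myeloid RNA in the Osm values was not tested.

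Of 11 other receptor and kinase genes of the pathway in CD8 T cells, 1 higher and 4 lower were found in fusion, 3 higher and 0 lower in combination, 5 higher and 1 lower in IL15 superagonist and 2 higher and 1 lower in anti-PD1, each against PBS. The shares of all genes, given above, were 17.7% higher and 28.4% lower in fusion, 12.7% and 18.7% in combination, 15.1% and 19.3% in IL15 superagonist and 8.38% and 11.6% in anti-PD1. Il2ra was higher in all 4, at 79.5 CPM in fusion and 31.4 CPM in PBS, or 2.54-fold (2.19 to 2.96), with 2.16-fold in combination, 2.63-fold in IL15 superagonist and 1.92-fold in anti-PD1. Il7r, the interleukin 7 receptor, was 6.87-fold (5.73 to 8.31) higher in IL15 superagonist, 5.03-fold (4.20 to 6.07) higher in combination and 2.84-fold (2.33 to 3.49) higher in anti-PD1 than in PBS, and at 0.186-fold (0.173 to 0.199) in fusion relative to combination. Il15ra, which presents interleukin 15, was at 0.381-fold (0.300 to 0.490), and Jak2 at 0.368-fold (0.323 to 0.421) in fusion relative to PBS. Il2rg, the shared receptor chain, was 1.99-fold (1.87 to 2.11) higher in IL15 superagonist. The 10 relatives of the members outside the set, such as Socs5, Socs7 and Stat3, gave 0 higher and 7 lower in fusion, 1 higher and 3 lower in combination, 2 higher and 3 lower in IL15 superagonist and 0 higher and 2 lower in anti-PD1. Socs5 was at 0.178-fold (0.136 to 0.234), Socs7 at 0.329-fold (0.276 to 0.395) and Stat3, which transmits interleukin 6 and 21 signals, at 0.319-fold (0.309 to 0.330) in fusion relative to PBS.

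Among 18 other genes linked to STAT5, 5 higher and 7 lower were found in fusion, 5 higher and 3 lower in combination, 4 higher and 3 lower in IL15 superagonist and 5 higher and 1 lower in anti-PD1 CD8 T cells against PBS, to be read beside the same shares of all genes. Gzmb, the killing protease granzyme B, was at 3933 CPM in fusion and 709 CPM in PBS, or 5.55-fold (5.38 to 5.72). The cyclin gene Ccnd3 was 3.02-fold (2.71 to 3.38), perforin (Prf1) 1.89-fold (1.77 to 2.02) and the transcription factor Tbx21 1.71-fold (1.54 to 1.91) higher in fusion. Prdm1, which encodes a transcriptional repressor of effector cells, was at 0.163-fold (0.133 to 0.200). The 9 attenuators of the signal, phosphatases among them, had 0 higher and 3 lower in fusion, 0 higher and 1 lower in combination, 1 higher and 1 lower in IL15 superagonist and 0 higher and 0 lower in anti-PD1. Of the partners of Lta and Osm, Tnf, the neighbour of Lta in the genome and a ligand of the same family, was at 30.6 CPM in fusion and 6.37 CPM in PBS, or 4.81-fold (3.47 to 6.85). Il6st, the signalling chain of the oncostatin M receptor, was at 0.160-fold (0.127 to 0.203). Of the 7 ligand genes, Il2 alone passed the minimum in fusion against PBS. Its 121 fusion UMIs, or 1.86 CPM, stood beside 4 UMIs in combination, 10 in IL15 superagonist, 8 in anti-PD1 and 2 in PBS. Fusion over each of these was 9.52-fold (3.62 to 35.5), 2.05-fold (1.08 to 4.39), 1.84-fold (0.905 to 4.36) and 5.38-fold (1.46 to 44.96) in that order, and the interval against anti-PD1 spans 1. Il15, named here after its values were seen, had 4 UMIs in fusion and 21 in combination, a ratio of 0.0599-fold (0.0150 to 0.178). In NK cells, Gzmb was 4.08-fold higher in fusion, 3.10-fold in combination, 3.30-fold in IL15 superagonist and 3.12-fold in anti-PD1 than in PBS, beside the members' values given above.

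Likeness of patterns was described by Pearson's r of log2(CPM + 1) over the 17 combinations of class and library with at least 50 cells, for 10254 genes with at least 200 UMIs. These points share libraries and classes, and no p is given. Stat5a and Stat5b were most like each other among the members (r = 0.95), followed by Cish with Socs2 (r = 0.85), Socs1 with Lta (r = 0.76) and Cish with Socs1 (r = 0.69). Pim2 ran against Stat5a and Socs2 (r = -0.42 for each). Over all genes, Pim1 was most like Nfkbiz, Antxr2 and Junb (r = 0.96, 0.96 and 0.95), Stat5a like Map4k2 (0.96) and Stat5b like Piezo1 (0.96). Socs3 was most like Fbxl12 (0.91), Pim2 like Il18rap (0.92), Cish like Ltb4r1 (0.87), Socs2 like Nt5e (0.87) and Osm like Fam49b (0.87). Socs1 and Lta had the same nearest gene, the T-cell receptor segment Trav14-3 (0.85 for each).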

How the data were processed

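The deposited values are whole-number UMI counts per gene and cell barcode, made by the authors with Cell Ranger 2.1.1 on mm10, per the submitters' processing notes. The sources used here do not give mapping settings, annotation release or barcode filter. The members, gene lists and rules were chosen with earlier results of these data known. Barcodes were kept at 200 or more genes and a mitochondrial share up to 10%, 5945 to 8657 per library. T cells had at least 2 UMIs of Cd3d, Cd3e and Cd3g. CD8 T cells also had at least 2 UMIs of Cd8a and Cd8b1 and none of Cd4 or Foxp3. CD4 T cells had Cd4 and Treg cells Foxp3, without Cd8 UMIs. NK cells had at least 2 of 6 NK genes (Ncr1, Klrb1c, Klre1, Klra8, Klra4, Eomes) and no Cd3d, Cd3e, Cd8, Cd4 or Foxp3 UMI. Cells with at least 2 genes and 3 UMIs of the myeloid or B-cell markers were left out of these classes. No doublet caller was run, and doublets of 2 T cells remain.

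Counts were summed per class and library and scaled to CPM with Python 3.11.15, numpy 2.4.6, scipy 1.17.1 and pandas 2.3.3, and plotted with matplotlib 3.10.9. A gene was called at 1.5-fold with at least 20 UMIs over both libraries, and classes needed 50 cells. There was no test, since each treatment has 1 library. Thinning drew 1500 UMIs per cell. For the alternative ratios the classes were gated again on the thinned UMIs, whereas the thinned shares and splits kept the classes of the full counts. No barcode had fewer UMIs than that, the lowest having 1751. The steps were tested on simulated data. All members are named. Of 65 genes in 6 pathway lists, up to 8 higher and 8 lower per comparison with at least 50 UMIs could be named, and the 3 genes most like each member by Pearson's r with at least 200 UMIs. Depth limits precision as the intervals show, and UMIs count captured molecules, so intervals cover counting error alone. Gene coordinates are from GENCODE on mm10. The alternatives tried were other gates, filters, scalings, folds and a second control library.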

Additional observations from a re-analysis of the deposited data

Results flagged for a closer look

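In 4 genes the ratio between libraries went in opposite directions in different cell classes, past 1.5-fold in each. None of these differences between classes was tested, since each rests on 1 library per treatment. Socs2 in IL15 superagonist relative to PBS was at 1.56-fold in CD8 T cells and at 0.398-fold in CD4 T cells, and relative to anti-PD1 it was at 2.38-fold in CD8 T cells and at 0.434-fold in CD4 T cells. The CD4 T values rest on 9 UMIs in IL15 superagonist. Of 10 alternatives, the calls against PBS were kept in 5 in CD8 T and 9 in CD4 T cells, and those against anti-PD1 in 10 in CD8 T and 9 in CD4 T cells. Pim1 in anti-PD1 relative to PBS was at 1.57-fold in CD8 T cells and at 0.624-fold in CD4 T cells. Both calls ended with other-lineage cells kept (log2 0.56 in CD8 T and -0.38 in CD4 T cells) and after thinning (0.52 and -0.17), and that in CD8 T cells also with CPM outside mitochondrial, ribosomal, granzyme and T-cell receptor genes (0.57). Lta in combination relative to IL15 superagonist was at 0.517-fold in CD8 T cells, at 8.20-fold in CD4 T cells and at 2.94-fold in NK cells, from 2 CD4 T and 6 NK UMIs in IL15 superagonist. In cells without Mki67 or Top2a UMIs the log2 ratio was 0.35 in CD4 T and 0.0061 in NK cells, and neither was called. Pim2 in IL15 superagonist relative to anti-PD1 was at 1.82-fold in CD8 T cells and at 0.414-fold in NK cells, and the CD8 T call ended per cell (log2 0.53).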

How the results depend on the processing

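No paired analysis was possible because each treatment has 1 library. With 1 library per treatment, the spread between mice is unknown, and small classes (CD4 T, Treg and fusion NK cells) limit Lta, Osm and Socs2 in particular. In CD8 T cells the number of members higher in fusion than in PBS was 3 to 6 over 12 alternatives, around 4 as reported. Combination over PBS, 5 as reported, gave 3 with the mean over cells, 3 in cells without Mki67 or Top2a UMIs, 3 with anti-PD1 in place of PBS and 1 at 2-fold. IL15 superagonist over PBS gave 4 at 2-fold. Anti-PD1 over PBS gave 1 with other-lineage cells kept, 0 after thinning, 1 with CPM outside mitochondrial, ribosomal, granzyme and T-cell receptor genes and 1 at 2-fold. Fusion over combination gave 5 by UMIs per cell, a scale on which the median of all genes was at a log2 ratio of 0.54. In NK cells fusion over PBS gave 1 per cell. Combination over PBS gave 1 with the stricter gate, 1 with a minimum of 1 UMI and 2 per cell. IL15 superagonist over PBS gave 0 with other-lineage cells kept, with the stricter gate, after thinning, at 2-fold and with anti-PD1 in place of PBS, and 2 per cell. Anti-PD1 over PBS gave 1 with other-lineage cells kept, the stricter gate, the mean over cells or cells without Mki67 or Top2a UMIs, and 0 at 2-fold.

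The direction of some called ratios turned, given here as log2. In cells without Mki67 or Top2a UMIs these were Osm of combination over PBS in CD8 T cells (0.11) and Lta in CD4 T cells of combination over PBS (-0.0914) and over anti-PD1 (-0.20). With anti-PD1 in place of PBS they were Lta in CD8 T (-0.25) and Socs1 in CD4 T cells (-0.0352) of combination. After thinning they were Socs2 of anti-PD1 over PBS in CD8 T cells (0.32), Pim2 of IL15 superagonist over PBS in CD4 T cells (0.0444), and in NK cells Osm of anti-PD1 over PBS (-0.79), fusion over combination (0.35) and fusion over anti-PD1 (0.64). With other-lineage cells kept they were Osm of combination over IL15 superagonist in CD8 T cells (0.32) and of IL15 superagonist over PBS in NK cells (-0.84). With the stricter gate they were Socs2 in NK cells of fusion (0.22) and IL15 superagonist (0.29) over PBS. Per cell they were Socs3 (0.20) and Pim2 (0.15) of fusion over PBS in NK cells, where depth per cell was also higher in fusion. The cause was not tested. Of the calls against PBS in CD8 T cells, 5 of 6 in fusion, 2 of 6 in combination, 5 of 7 in IL15 superagonist and 1 of 3 in anti-PD1 were kept under all alternatives that kept PBS and 1.5-fold, and of those in NK cells 0 of 5, 0 of 1, 0 of 4 and 1 of 3. The alternatives with anti-PD1 in place of PBS and with UMIs per cell were chosen after seeing the data.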
